A study of Homo sapiens with 12 samples.

Results

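The genes described here are 10 members of the Hippo pathway and its transcriptional output, namely the coactivators YAP1 and WWTR1 (which encodes TAZ), the DNA-binding factor TEAD1, the kinases LATS1 and LATS2, the angiomotin family members AMOTL1 and AMOTL2, and the target genes CTGF, CYR61 and ANKRD1. They were taken by symbol, and all 10 were found among the 25369 genes measured. Poly(A)+ RNA-seq was carried out in 12 libraries from 3 established human cancer cell lines, RKO (colon carcinoma), A549 (lung adenocarcinoma) and H460 (large cell lung carcinoma), with 2 independent biological replicates in each of 6 groups. The normoxia groups were kept in a standard humidified incubator, and the hypoxia groups were held at 1% O2 for 24 h. RKO and A549 were grown in DMEM and H460 in RPMI, so that medium and line cannot be told apart in comparisons with H460. No line carried an engineered allele or a drug according to the labels, and each line is 1 cultured line and not a sampling of its tumor type.

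The Hippo pathway restrains growth by phosphorylating the coactivators YAP and TAZ. Active LATS kinases mark both proteins for retention in the cytoplasm and for degradation, and angiomotins bind and hold YAP at cell junctions. Unphosphorylated YAP and TAZ enter the nucleus, bind TEAD factors and switch on genes such as CTGF, CYR61 and ANKRD1, and also AMOTL2 and LATS2, which feed back on the pathway. Much of this control acts on proteins, whereas the values below are levels of mRNA. In bulk RNA, fewer expressing cells and less RNA per cell cannot be told apart.

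The promoter sequences of members with TEAD letters are shown first, because the target genes are defined by TEAD binding. RefSeq windows on GRCh38.p14, from 250 bases before to 50 bases after the transcription start, were matched for 8 of the 10 genes, with CTGF under its current symbol. CYR61 and TEAD1 had no entry, and WWTR1, LATS1 and AMOTL2 had 2 windows each. The letters GGAATG, searched on both strands, occurred at least once in 14.0% of 35116 windows, at least 2 times in 1.37% and at least 3 times in 0.128%. The CTGF promoter (chr6:131951373-131951622, minus strand) held 3 copies, with first bases at -169, -104 and -95 from the start. The ANKRD1 promoter (chr10:90921088-90921337, minus strand) held 2, at -220 and -128. AMOTL2 (30 bases at chr3:134374499-134374528, minus strand, in 1 of its 2 windows) and YAP1 (30 bases at chr11:102110273-102110302, plus strand) each held 1, at -69 and -162. The lines run from 5′ to 3′ on the strand of the gene, and capitals mark GGAATG or its reverse complement.
CTGF: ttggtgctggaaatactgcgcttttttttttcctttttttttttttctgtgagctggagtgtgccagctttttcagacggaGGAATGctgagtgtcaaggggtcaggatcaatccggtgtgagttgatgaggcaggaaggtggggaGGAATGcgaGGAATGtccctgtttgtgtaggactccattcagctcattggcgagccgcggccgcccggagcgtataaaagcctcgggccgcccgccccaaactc
ANKRD1: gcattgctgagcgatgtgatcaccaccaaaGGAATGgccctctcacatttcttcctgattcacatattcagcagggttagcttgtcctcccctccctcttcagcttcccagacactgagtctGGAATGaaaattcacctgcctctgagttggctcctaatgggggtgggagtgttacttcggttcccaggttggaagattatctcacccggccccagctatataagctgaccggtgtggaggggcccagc
AMOTL2: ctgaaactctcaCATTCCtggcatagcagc
YAP1: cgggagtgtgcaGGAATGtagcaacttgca

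LATS2 held 1 further GGAATG, 10 bases after its start, and no window of LATS1, WWTR1 or AMOTL1 held one. The letters ACGTG are the core of the element bound by hypoxia-inducible factors. They were present in the windows of YAP1, LATS2 and AMOTL1 and in 1 of 2 windows of LATS1, against 21.4% of all windows. In YAP1 and LATS2 the matches on both strands were 1 palindrome, CACGTG, read from either side. The related letters GCGTG occurred in 1 window each of WWTR1 and AMOTL2 (36.5% of all windows), and the AP-1 letters TGACTCA in none of the members' windows (4.95% of all windows). Neither CTGF nor ANKRD1 held ACGTG or GCGTG. A match describes letters only and is not a measured binding site.

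Counted reads per library lay between 27350424 and 41757584. CA9, a standard target of the hypoxia-inducible factors, was called higher in hypoxia in each line (log2 fold changes of 6.81 in H460, 5.65 in A549 and 4.45 in RKO), in the direction of the labels. Epithelial markers passed 0.5 CPM in at least 2 libraries for 5 of 5 genes in A549, 4 of 5 in RKO and 3 of 5 in H460, with CDH1 under this limit in RKO and H460 and EPCAM in H460. Markers of the organ were sparse, with 1 of 5 colon markers (CDX2) in RKO, and 2 of 5 and 3 of 5 lung markers in A549 and H460. Summed lung markers were 2622 to 3349 CPM in A549 normoxia, where KRT7 had a mean of 2982 CPM. In H460 normoxia the sums were 14.6 to 16.1 CPM, with a mean of 0.03 CPM for NKX2-1. RKO also passed 1 lung marker (KRT7) and A549 1 colon marker (CDH17). Replicates varied most in A549 (biological coefficient of variation 18.9%), then in RKO (15.0%) and H460 (7.91%). In H460 the scaling mattered, since scaling by library size alone shifted the median of all genes by -0.35 on the log2 scale relative to the TMM factors used here. H460 changes are therefore given relative to the TMM reference, and the 0.08 and -0.09 shifts in RKO and A549 were small beside it.

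The 2 A549 normoxia libraries stood far apart in several of these genes. In A549 normoxia, replicate 2 exceeded replicate 1 by 6.07-fold for ANKRD1, 5.97-fold for CTGF, 4.04-fold for CYR61, 2.08-fold for AMOTL2 and 1.66-fold for LATS2. Among 12158 genes with a mean of at least 100 counts in these libraries, the ratio of ANKRD1, CTGF and CYR61 ranked 4, 5 and 16 from the top, and that of AMOTL2 124. Thus 5 of 10 members exceeded 1.5-fold, against 6.88% of all genes, and no other group had more than 2 members beyond this ratio in that direction. The other genes among the first 10 of this ratio, named after their values were seen, were ADM2, CHAC1, ULBP1, NUPR1, DDIT3, TSC22D3, RAB39B and ASNS. CA9, at a mean of 4.23 CPM in A549 normoxia, stood at 0.439-fold in the same library. The ratio of CA9 was 0.498 in RKO normoxia and 0.300 in H460 normoxia, so it did not set A549 apart. With 2 replicates, the values do not show which library is unusual. The A549 comparisons were therefore also fitted without each A549 normoxia library in turn.

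**Figure D1:**
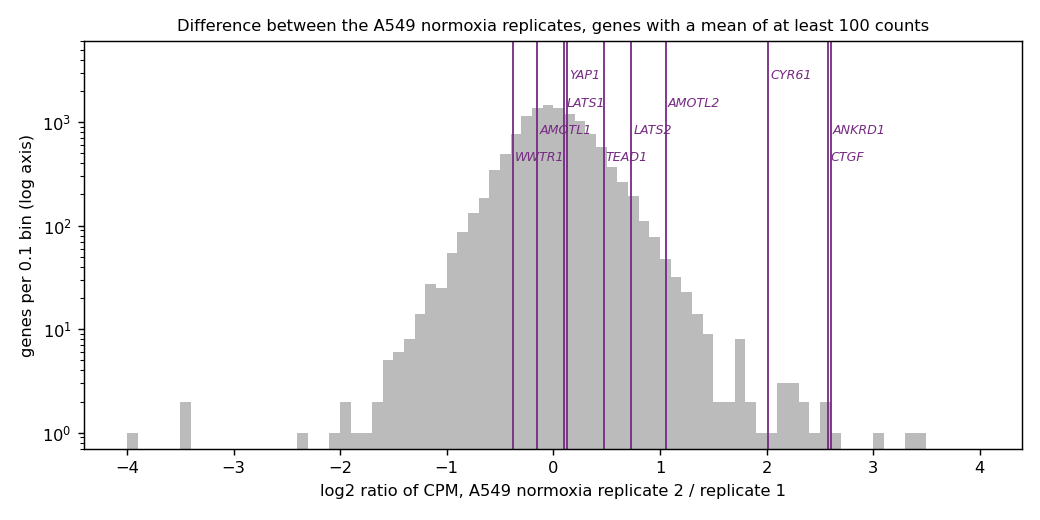
Histogram of the log2 ratio of CPM between replicates 2 and 1 of A549 normoxia over 12158 genes (x axis; y axis, genes per bin on a log scale), with vertical lines for the 10 members. ANKRD1, CTGF and CYR61 lie in the far right tail, with 6.07-fold, 5.97-fold and 4.04-fold higher values in replicate 2, while YAP1 and LATS1 lie near the center.

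The first question was how strongly each line expressed the pathway before hypoxia. Levels between genes are compared per length, as deposited RPKM, and differences between lines as edgeR log2 differences with their standard errors (SE). The widest differences between lines were those of ANKRD1, AMOTL1 and CTGF, while LATS2 was called in no pair of lines. Of the 10 members, 1 was higher and 6 were lower in RKO than in A549 (26% and 34.1% of all genes tested were called in these directions). Against H460, 1 was higher and 5 were lower in RKO (27.2% and 34.7% of all genes), and 4 were higher and 1 lower in A549 than in H460 (26.9% and 25.2%). In either direction, 60.2%, 61.9% and 52.1% of all genes were called in these 3 pairs, so that a difference between lines was the common case for any gene. Adjusted p values are Benjamini-Hochberg values of the edgeR quasi-likelihood test over all genes tested.

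YAP1 (GRCh37 chr11:101981192-102104154, plus strand) had similar levels in RKO and A549 and a lower level in H460. Its normoxic RPKM was 28.8 and 26.8 in RKO, 26.9 and 30.03 in A549, against 15.8 and 16.9 in H460. H460 was the low line, below RKO by a log2 difference of 0.74 ± 0.13 (adjusted p = 0.000157) and below A549 by 0.78 ± 0.13 (adjusted p = 0.000136). RKO and A549 did not differ beyond the spread (-0.04 ± 0.13, adjusted p = 0.78).

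WWTR1 (chr3:149235022-149421060, minus strand) encodes TAZ, the paralog of YAP, and its antisense partner WWTR1-AS1 lies on the opposite strand, which stranded counting separates. WWTR1 RPKM was 4.87 and 4.22 in RKO, 24.1 and 18.9 in A549, against 19.3 and 18.1 in H460. RKO was the low line for this coactivator, by 2.25 ± 0.17 against A549 (adjusted p = 1.91e-08) and 2.07 ± 0.16 against H460 (adjusted p = 4.66e-08). The ratio of YAP1 to WWTR1 per length was therefore 5.92 and 6.35 in the RKO normoxia libraries, 1.12 and 1.59 in A549, and 0.818 and 0.939 in H460.

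TEAD1 (chr11:12695969-12966284, plus strand), which places YAP and TAZ on DNA, reached 20.04 and 19.4 RPKM in RKO, 37.4 and 52.9 in A549, against 34.1 and 37.0 in H460. It was lower in RKO than in A549 by 1.20 ± 0.17 (adjusted p = 2e-05) and lower than in H460 by 0.88 ± 0.17 (adjusted p = 0.000326).

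The kinases were expressed at a lower level per length than YAP1. LATS1 (chr6:149979289-150039392, minus strand) had 6.63 and 8.07 RPKM in RKO, 3.81 and 4.18 in A549, against 4.83 and 5.03 in H460, and was higher in RKO than in A549 by 0.87 ± 0.14 (adjusted p = 6.81e-05). LATS2 (chr13:21547176-21635722, minus strand) had 5.62 and 6.54 RPKM in RKO, 5.78 and 9.82 in A549, against 7.02 and 7.42 in H460. LATS2 did not pass in any pair (adjusted p = 0.113, 0.222 and 0.717), and its A549 replicates enclosed all values of the other lines except the lowest RKO value.

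AMOTL1 (chr11:94501508-94609918, plus strand), an angiomotin, was near the detection limit in RKO, with 8 and 21 reads (0.0247 and 0.0633 RPKM). It stood at 4.90 and 4.51 RPKM in A549 and 4.05 and 4.36 in H460. The differences were -6.73 ± 0.33 against A549 (adjusted p = 1.95e-10) and -6.59 ± 0.33 against H460 (adjusted p = 2.49e-10). Its paralog AMOTL2 (chr3:134074187-134094259, minus strand) had 15.2 and 16.9 RPKM in RKO, 24.1 and 51.2 in A549, against 14.5 and 18.4 in H460. AMOTL2 was higher in A549 than in RKO by 1.24 ± 0.26 (adjusted p = 0.000589) and higher than in H460 by 1.17 ± 0.26 (adjusted p = 0.00118). With A549 normoxia replicate 2 left out, RKO minus A549 was -0.62, and A549 minus H460 was 0.55, under the fold limit. At the other end of 20 alternatives they were -1.68 and 1.61.

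CTGF (chr6:132269317-132272518, minus strand) and CYR61 (chr1:86046444-86049648, plus strand) encode related secreted matricellular proteins. CTGF stood at 9.46 and 8.26 RPKM in RKO, 6.26 and 38.2 in A549, against 166 and 199 in H460. CYR61 stood at 79.8 and 96.6 RPKM in RKO, 54.9 and 227 in A549, against 37.0 and 62.3 in H460. The order of these genes was opposite between lines, because the ratio of CYR61 to CTGF was 8.44 and 11.7 in RKO and 8.77 and 5.94 in A549, but 0.224 and 0.312 in H460. CTGF was higher in H460 than in RKO by 4.39 ± 0.56 (adjusted p = 6.6e-06) and than in A549 by 3.07 ± 0.52 (adjusted p = 0.000158). The latter difference, as A549 minus H460, was -4.87 without A549 normoxia replicate 2, and -2.29 at the other end of 20 alternatives.

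Between RKO and A549, the direction for both genes followed the A549 normoxia library that was kept. Without A549 normoxia replicate 1, RKO minus A549 was -2.11 for CTGF and -1.37 for CYR61. With all libraries CTGF was lower in RKO by 1.33 ± 0.50 (adjusted p = 0.0289), but without A549 normoxia replicate 2 it was higher in RKO by 0.48 (adjusted p = 0.0655, under the fold limit). CYR61 moved from -0.68 ± 0.42 (adjusted p = 0.169) to 0.66. Its excess of 1.48 ± 0.43 in A549 over H460 (adjusted p = 0.00876) moved to 0.14, and was 2.16 at the other end of 20 alternatives.

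ANKRD1 (chr10:92671857-92681032, minus strand), an ankyrin repeat protein gene often used as a YAP readout, was the lowest in RKO and the highest in A549. Its RPKM was 0.338 and 0.247 in RKO, 11.03 and 68.5 in A549, against 1.65 and 2.53 in H460. The order A549, H460, RKO held without overlap, and each step was called, with A549 above H460 by 4.22 ± 0.62 (adjusted p = 4.36e-05) and RKO below H460 by 2.86 ± 0.74 (adjusted p = 0.00322). The span from RKO to A549 was -7.08 with all libraries, beyond the -6.73 of AMOTL1. Without A549 normoxia replicate 2 it was -5.25, inside the -6.81 of AMOTL1, and the step from H460 to A549 was 2.39. At the other end of 20 alternatives the span was -7.86 and the step 5.00.

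**Figure D2:**
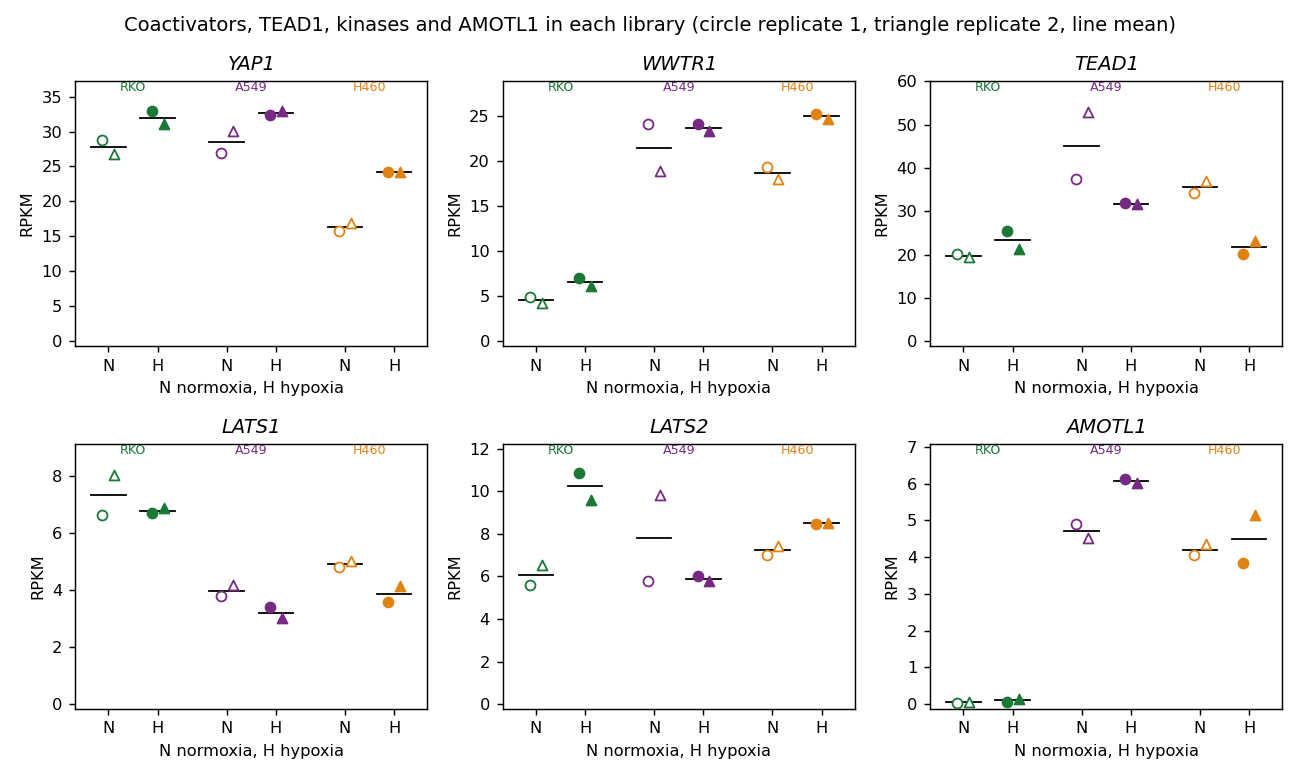
RPKM (y axis, linear from 0) of YAP1, WWTR1, TEAD1, LATS1, LATS2 and AMOTL1 in each library of the 3 lines, open symbols in normoxia and filled symbols in hypoxia, with circles for replicate 1, triangles for replicate 2 and bars for the mean of 2. WWTR1 and AMOTL1 are lowest in RKO, and YAP1 in H460 moves from 15.8 and 16.9 in normoxia to 24.2 in both hypoxia libraries.

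The main comparison was hypoxia against normoxia within each line. In RKO the targets CTGF, CYR61 and ANKRD1 and the kinase LATS2 rose, and no member fell, so that 4 of 10 members were called higher (18.8% of all genes tested) and 0 lower (15.1%, with 33.9% in either direction). In H460, YAP1, WWTR1 and LATS2 rose (3 of 10, against 24.6% of all genes), whereas CTGF, ANKRD1 and AMOTL2 fell (3 of 10, against 27.3% of all genes and 51.9% in either direction). In A549 no member was called in either direction, in a line where 2.22% of all genes were called higher and 0.456% lower (2.67% in either direction). A call required an adjusted p under 0.1 and a fold change over 1.5. The median log2 fold change of the members stood at -0.17 in H460, -0.36 in A549 and 0.57 in RKO, beside -0.04, -0.01 and 0.01 over all genes tested. The A549 median was 0.08 without normoxia replicate 2, and the H460 median was 0.000625 without its normoxia replicate 2.

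For the counts of 0, other readings were made. In RKO no member was lower at an unadjusted p under 0.05 by edgeR, and DESeq2 called 0 lower. In A549, AMOTL1 was higher and AMOTL2 and ANKRD1 were lower at an unadjusted p under 0.05, and DESeq2 called 0 in both directions. In A549, 4 members were called lower without normoxia replicate 1 and 4 without hypoxia replicate 1, 1 without hypoxia replicate 2, 1 in a joint fit of all libraries and 1 with no low count filter. Hypoxia and normoxia values did not overlap for 7 members that were higher and 1 that was lower in RKO (35.2% and 35.1% of all genes), 3 and 2 in A549 (25.1% and 24.7%), and 4 and 4 in H460 (41.8% and 44.6%). Library values below are CPM, reads scaled to a common library total with TMM factors set within each line.

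CTGF went in opposite directions in RKO and H460. In RKO it stood at 23.2 and 19.6 CPM in normoxia and 50.5 and 43.1 CPM in hypoxia, a log2 fold change of 1.13 ± 0.18 (adjusted p = 0.00099). In H460, where CTGF was most abundant, it stood at 347 and 409 CPM in normoxia and 261 and 192 CPM in hypoxia, a fall by 0.74 ± 0.14 (adjusted p = 0.000384). Neither line showed overlap between conditions. The fall in H460 lay under the fold limit without hypoxia replicate 2 (-0.51, adjusted p = 0.000925), and it was not called in a joint fit of all libraries (adjusted p = 0.221), which includes the A549 libraries.

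CTGF in A549 could not be given a direction. It stood at 14.4 and 85.8 CPM in normoxia, with the hypoxia values of 26.7 and 25.8 CPM between them, and the fitted change was -0.93 ± 0.60 (adjusted p = 0.473). Without normoxia replicate 2 the change was 0.87 (adjusted p = 0.139), and without normoxia replicate 1 it was -1.71 (adjusted p = 0.00109). The sign thus followed the normoxia library that was kept.

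CYR61 rose in RKO, from 192 and 224 CPM to 382 and 405 CPM (0.92 ± 0.16, adjusted p = 0.00143). In H460 it stood at 76.0 and 125 CPM in normoxia and 82.4 and 75.8 CPM in hypoxia, and the groups overlapped (-0.35 ± 0.17, adjusted p = 0.0888, under the fold limit). In A549 it stood at 123 and 499 CPM in normoxia and 221 and 154 CPM in hypoxia (-0.73 ± 0.50, adjusted p = 0.501). As for CTGF, the A549 change turned from -1.41 (adjusted p = 0.0109) without normoxia replicate 1 to 0.60 (adjusted p = 0.316) without normoxia replicate 2.

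ANKRD1 had the largest change of the members in RKO, from a low base. Its 24 and 18 reads in normoxia became 176 and 101 reads in hypoxia, and its level went from 0.70 and 0.49 CPM to 4.52 and 2.85 CPM (2.62 ± 0.40, adjusted p = 0.000777). In H460 it fell from 2.91 and 4.38 CPM to 1.34 and 2.14 CPM (-1.06 ± 0.28, adjusted p = 0.00496), a call that was lost in the joint fit (adjusted p = 0.196). In A549 it stood at 21.3 and 129.6 CPM in normoxia and 24.3 and 16.8 CPM in hypoxia (-1.87 ± 0.63, adjusted p = 0.203). The A549 estimate was -0.05 (adjusted p = 0.958) without normoxia replicate 2, and -2.66 (adjusted p = 8.93e-05) without normoxia replicate 1.

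AMOTL2, an angiomotin that is itself a YAP target, followed CTGF and ANKRD1 in H460. It fell there from 67.8 and 84.4 CPM to 38.9 and 42.7 CPM (-0.90 ± 0.11, adjusted p = 1.92e-05). In RKO it stood at 83.4 and 89.5 CPM in normoxia and 127 and 104 CPM in hypoxia, a difference without overlap but under the fold limit (0.42 ± 0.16, adjusted p = 0.0555). In A549 it stood at 124 and 257 CPM in normoxia and 129.9 and 104 CPM in hypoxia (-0.70 ± 0.30, adjusted p = 0.288), and the change was -0.08 without normoxia replicate 2 and -1.14 (adjusted p = 0.0233) without normoxia replicate 1.

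**Figure D3:**
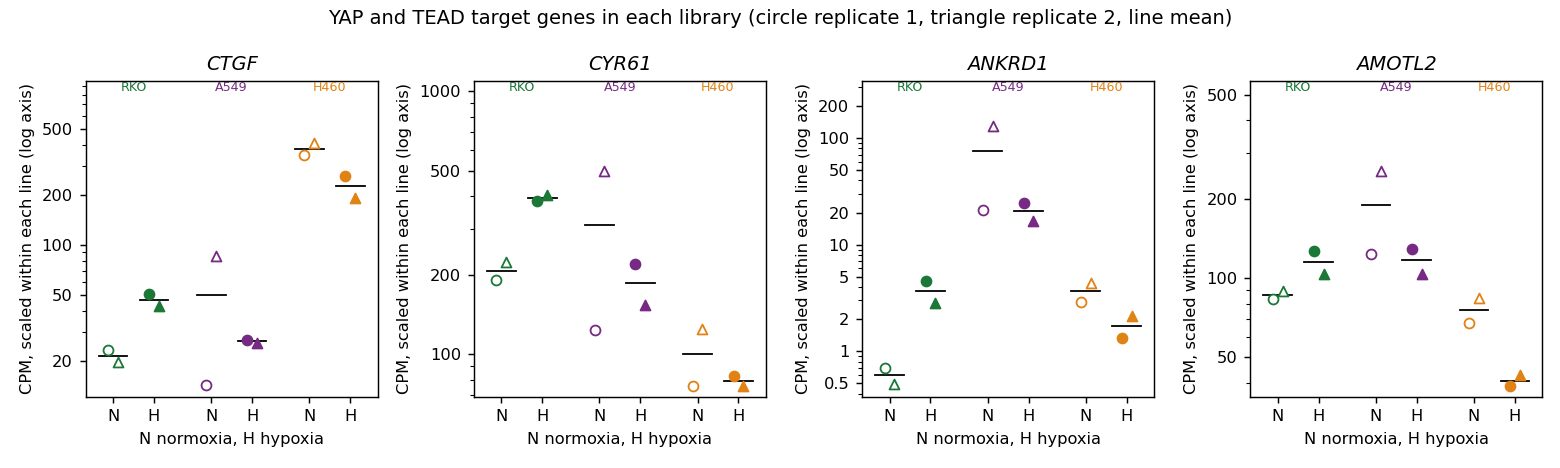
CPM (log axis, scaled by TMM factors within each line, so that heights compare within a line) of CTGF, CYR61, ANKRD1 and AMOTL2 in each library, open symbols in normoxia and filled symbols in hypoxia. Hypoxia values lie above normoxia values for all 4 genes in RKO, below them for CTGF, ANKRD1 and AMOTL2 in H460, and next to or below the lower of 2 widely spaced normoxia replicates, or between them, in A549.

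AMOTL1 and its paralog had log2 fold changes of opposite sign in H460 and A549 and of the same sign in RKO. AMOTL1 stood at 0.23 and 0.58 CPM in RKO normoxia and 0.59 and 1.24 CPM in RKO hypoxia (1.15 ± 0.55, adjusted p = 0.12), which rests on 44 reads or fewer per library. In A549 the values were 43.2 and 38.9 CPM in normoxia and 56.4 and 56.7 CPM in hypoxia (0.46 ± 0.18, adjusted p = 0.25), and in H460 they were 32.6 and 34.4 CPM in normoxia and 39.9 and 51.2 CPM in hypoxia (0.44 ± 0.12, adjusted p = 0.00497, under the fold limit). Hypoxia CPM lay above normoxia CPM without overlap in each line, narrowly so in RKO, while the H460 values of 4.05 and 4.36 RPKM in normoxia and 3.84 and 5.14 RPKM in hypoxia overlapped. The effect averaged over the lines was 0.71 ± 0.17 (adjusted p = 0.00306), and AMOTL1 was the only member called in that average, as higher (1 of 10 against 14.8% of all genes, and 0 lower against 11.5%, with 26.4% in either direction). That call was lost under the fold limit with library size scaling alone (0.56), without RKO normoxia replicate 1 (0.55) and without RKO hypoxia replicate 2 (0.52).

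YAP1 rose in H460, from 80.6 and 84.7 CPM to 159.6 and 153 CPM (0.92 ± 0.09, adjusted p = 1.5e-06). It was 172 and 155 CPM in RKO normoxia and 189 and 167 CPM in hypoxia (0.12 ± 0.15, adjusted p = 0.568). In A549 it was 151 and 164 CPM in normoxia and 188 and 196 CPM in hypoxia (0.29 ± 0.17, adjusted p = 0.428). The values overlapped in RKO and did not in A549.

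WWTR1 moved alongside YAP1 in H460, from 92.7 and 84.9 CPM to 156 and 147 CPM (0.77 ± 0.09, adjusted p = 9.26e-06). In RKO it stood at 27.4 and 22.9 CPM in normoxia and 38.1 and 31.1 CPM in hypoxia (0.46 ± 0.19, adjusted p = 0.0719, under the fold limit). In A549 it stood at 127 and 97.4 CPM in normoxia and 132 and 131 CPM in hypoxia (0.23 ± 0.18, adjusted p = 0.574). Averaged over lines, YAP1 and WWTR1 were higher by 0.47 ± 0.07 (adjusted p = 0.000124) and 0.52 ± 0.09 (adjusted p = 0.000309), both below the fold limit.

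The size of the coactivator changes in H460 depended on scaling, as their direction did not. Scaled by library size alone, the H460 changes of YAP1, WWTR1 and LATS2 were 0.57, 0.42 and 0.23, all under the fold limit, so that no member was called higher and 5 were called lower. The RPKM values, which carry that scaling, show the same smaller step, from 15.8 and 16.9 to 24.2 and 24.2 for YAP1 and from 19.3 and 18.1 to 25.2 and 24.7 for WWTR1. The ratio of YAP1 to TEAD1 per length, which no scaling of libraries touches, went from 0.463 and 0.458 in H460 normoxia to 1.20 and 1.04 in hypoxia, and was 1.30 to 1.45 in every RKO library.

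TEAD1 was not called in any line. In H460 it stood at 287 and 305 CPM in normoxia and 220 and 242 CPM in hypoxia, without overlap and under the fold limit (-0.36 ± 0.09, adjusted p = 0.00397), and with library size scaling alone the change of -0.71 was called. In RKO it was 198 and 185 CPM in normoxia and 240 and 189 CPM in hypoxia (0.17 ± 0.16, adjusted p = 0.457). In A549 it was 345 and 478 CPM in normoxia and 306 and 312 CPM in hypoxia (-0.41 ± 0.20, adjusted p = 0.342).

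LATS2, the kinase gene that YAP itself induces, rose in RKO from 32.6 and 36.7 CPM to 60.4 and 50.2 CPM (0.67 ± 0.17, adjusted p = 0.0103). It rose in H460 from 34.8 and 36.0 CPM to 54.2 and 52.2 CPM (0.59 ± 0.09, adjusted p = 9.68e-05), where the fold of 1.502 sat at the limit and was lost in 3 of the 4 fits that left out a library. The RKO call was likewise lost without hypoxia replicate 1 (0.57, adjusted p = 0.0325). In A549 the values were 31.4 and 52.2 CPM in normoxia and 34.0 and 33.5 CPM in hypoxia (-0.31 ± 0.25, adjusted p = 0.578).

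LATS1 was not called in any line. It stood at 55.5 and 65.2 CPM in RKO normoxia and 53.7 and 51.9 CPM in hypoxia (-0.19 ± 0.16, adjusted p = 0.364), at 29.8 and 32.0 CPM in A549 normoxia and 27.7 and 25.2 CPM in hypoxia (-0.22 ± 0.19, adjusted p = 0.608), and at 34.5 and 35.2 CPM in H460 normoxia and 33.2 and 36.8 CPM in hypoxia (0.01 ± 0.10, adjusted p = 0.953). Hypoxia CPM of LATS1 lay below normoxia CPM without overlap in RKO and A549, and the values overlapped in H460. The H460 estimate depended on the setting, from -0.34 to 0.09 over 16 alternatives. RPKM of LATS1, scaled by library total without TMM, was lower in H460 hypoxia without overlap. The ratio of LATS1 to LATS2 per length went from 1.18 and 1.23 to 0.617 and 0.717 in RKO. In H460 the ratio was 0.688 and 0.677 in normoxia and 0.425 and 0.488 in hypoxia. In A549 it was 0.658 and 0.425 in normoxia and 0.565 and 0.523 in hypoxia.

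**Figure D4:**
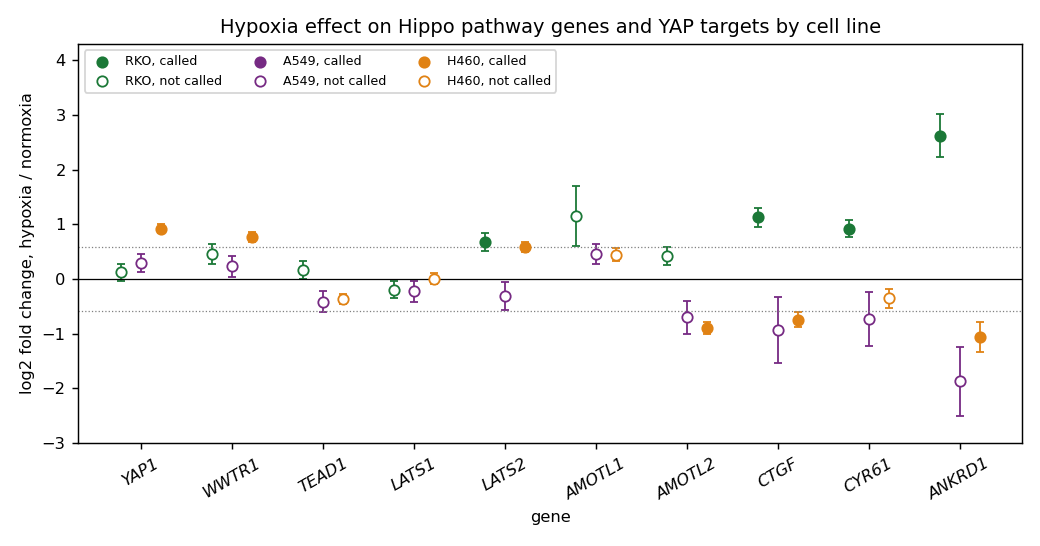
Log2 fold change of hypoxia over normoxia (y axis) for each member (x axis) in RKO, A549 and H460, with bars of 1 SE and dotted lines at a fold change of 1.5; filled points were called. CTGF, CYR61 and ANKRD1 are filled above 0 in RKO, CTGF, ANKRD1 and AMOTL2 are filled below 0 in H460, and no A549 point is filled.

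Whether the effects differed between lines was tested by the interaction of line and oxygen in the fit of all 12 libraries. It passed an adjusted p of 0.1 for 7 of 10 members, in a series where 48.8% of all genes passed. The count was 4 without RKO normoxia replicate 1 or 2, and 4 to 8 over all fits that left out a library. These were ANKRD1 (adjusted p = 0.00468), YAP1 (0.0105), AMOTL2 (0.0157), LATS2 (0.0181), CTGF (0.0453), CYR61 (0.075) and TEAD1 (0.0784). WWTR1, AMOTL1 and LATS1 did not pass (adjusted p = 0.148, 0.371 and 0.597).

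The contrast of RKO with H460 involved no A549 library in its estimate. The log2 hypoxia effect was higher in RKO by 3.74 ± 0.99 for ANKRD1 (adjusted p = 0.0118), by 1.92 ± 0.69 for CTGF (adjusted p = 0.0505), by 1.36 ± 0.36 for AMOTL2 (adjusted p = 0.0112) and by 0.57 ± 0.24 for TEAD1 (adjusted p = 0.0844). It was lower in RKO by 0.75 ± 0.18 for YAP1 (adjusted p = 0.00717), and CYR61 did not pass (1.31 ± 0.60, adjusted p = 0.118). Thus 4 of 10 members were higher and 1 was lower, against 21.1% and 16.4% of all genes (37.6% in either direction). When only the 8 RKO and H460 libraries were fitted, an alternative chosen after the data were seen, the differences were 3.75 ± 0.51 for ANKRD1 (adjusted p = 0.000128), 1.93 ± 0.24 for CTGF (adjusted p = 5.88e-05), 1.38 ± 0.20 for AMOTL2 (adjusted p = 0.000215) and 1.33 ± 0.26 for CYR61 (adjusted p = 0.00173). Over 20 alternatives, the call was lost in 7 for CTGF (adjusted p up to 0.145), in 9 for TEAD1 (up to 0.268) and in 1 for YAP1, and in none for ANKRD1 and AMOTL2.

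Against A549, the effect in RKO was higher for 5 members (9.03% of all genes) and lower for 0 (5.53%, with 14.6% in either direction), with differences of 4.55 ± 0.92 for ANKRD1 (adjusted p = 0.0101), 2.11 ± 0.70 for CTGF (adjusted p = 0.0778), 1.70 ± 0.60 for CYR61 (adjusted p = 0.0956), 1.17 ± 0.36 for AMOTL2 (adjusted p = 0.0585) and 1.03 ± 0.28 for LATS2 (adjusted p = 0.0382). Without A549 normoxia replicate 2 the differences were 2.73 for ANKRD1, 0.30 for CTGF, 0.36 for CYR61 and 0.55 for AMOTL2. At the other end of 19 alternatives they were 5.34, 2.89, 2.38 and 1.61. Over 19 alternatives, the call was lost in 14 for CYR61, in 11 for CTGF, in 6 for AMOTL2 and in 3 for LATS2, and in none for ANKRD1. Between A549 and H460, YAP1 (-0.63 ± 0.18, adjusted p = 0.0201), WWTR1 (-0.54 ± 0.22, adjusted p = 0.0828) and LATS2 (-0.90 ± 0.28, adjusted p = 0.0285) had a lower effect in A549, 3 of 10 members against 17.2% of all genes, and 0 had a higher one (18.8%, with 36% in either direction). The call was lost in 9 of 19 alternatives for WWTR1 (adjusted p up to 0.317), in 2 for LATS2 and in 1 for YAP1. Without A549 normoxia replicate 2, LATS2 stood at -0.48, AMOTL2 at 0.82, CTGF at 1.61 and CYR61 at 0.95. At the other end of 19 alternatives they stood at -1.22, -0.24, -0.97 and -1.07. These contrasts share libraries, and the A549 values carry the spread of its normoxia replicates.

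The remaining pathway genes were read as 3 lists, written from general knowledge of the pathway and with earlier results of these data known. Of 29 further Hippo regulators, 24 were tested in RKO (3 higher, 1 lower), 26 in A549 (1 higher, 0 lower) and 27 in H460 (12 higher, 4 lower), with median log2 fold changes of 0.02, 0.17 and 0.13. The shares of all genes called higher were 18.8% for RKO, 2.22% for A549 and 24.6% for H460, and those called lower were 15.1%, 0.456% and 27.3%. In RKO, SAV1, the scaffold of the upstream kinases, rose by 0.96 ± 0.18 (adjusted p = 0.00227) and VGLL4, which competes with YAP for TEAD, by 0.80 ± 0.16 (adjusted p = 0.00322), while the TEAD family member TEAD4 fell by 0.71 ± 0.16 (adjusted p = 0.00655). In H460, VGLL4 rose by 1.69 ± 0.10 (adjusted p = 5.28e-08) and RASSF1, a scaffold that binds the upstream kinases, by 1.55 ± 0.10 (adjusted p = 5.93e-08). The polarity gene SCRIB fell there by 1.47 ± 0.09 (adjusted p = 6.73e-08) and TEAD4 by 1.18 ± 0.12 (adjusted p = 2.52e-06). The 1 regulator called in A549 was the atypical cadherin FAT4 (1.19 ± 0.24, adjusted p = 0.0593). The A549 count was 0 with library size scaling alone, with limma, at an adjusted p under 0.05 and without normoxia replicate 1. It was 2 in the joint fit, 3 without normoxia replicate 2 and 4 without hypoxia replicate 1. The RKO count of higher regulators was 5 in the joint fit and with library size scaling alone, and 6 without hypoxia replicate 2. With library size scaling alone, the H460 count was 6 higher and 7 lower.

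VGLL4 and TEAD4 thus changed in opposite directions in H460, as they did in RKO. VGLL4 reached 201 and 178 CPM in H460 hypoxia from 63.2 and 54.6 CPM in normoxia, and TEAD4 reached 10.7 and 10.1 CPM from 24.0 and 23.0 CPM, each without overlap.

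Of 17 other YAP and TEAD target genes, 14 were tested in RKO (6 higher, 1 lower), 17 in A549 (3 higher, 0 lower) and 17 in H460 (9 higher, 3 lower), and the medians were 0.62, 0.37 and 0.69. The shares of all genes called are those given for the regulators. The A549 count of higher targets was 0 with limma and no filter, 5 with DESeq2, in the joint fit and with no low count filter, and 6 without hypoxia replicate 1, where 2 were lower. F3, which encodes tissue factor, was called higher in all 3 lines, by 1.54 ± 0.12 in H460, 2.03 ± 0.30 in A549 and 2.00 ± 0.24 in RKO (adjusted p = 4.66e-07, 0.0155 and 0.000252). Its values were 5.59 and 4.80 CPM in RKO normoxia and 23.8 and 17.7 CPM in hypoxia, 4.84 and 4.71 against 14.3 and 24.9 CPM in A549, and 16.2 and 12.7 against 40.4 and 43.3 CPM in H460. F3 in H460 thus rose in the same libraries in which CTGF and ANKRD1 fell.

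Other targets varied by line. The matrix gene CCDC80 rose in RKO by 1.91 ± 0.27 (adjusted p = 0.000564), and FJX1 fell by 1.18 ± 0.30 (adjusted p = 0.0113). In H460 the binding protein IGFBP3 rose by 3.80 ± 0.16 (adjusted p = 3.09e-09) and the receptor kinase AXL by 2.48 ± 0.11 (adjusted p = 4.07e-09), while FJX1 fell by 2.26 ± 0.14 (adjusted p = 7.6e-08) and the kinase NUAK2 by 1.05 ± 0.18 (adjusted p = 0.000223). IGFBP3 rose in A549 as well (1.84 ± 0.19, adjusted p = 0.00441). Summed fibroblast markers in A549 were 50.9 to 87.6 CPM in normoxia and 135 to 435 CPM in hypoxia. There 2 of 5 genes (COL1A1 and LUM) passed 0.5 CPM, and COL1A1 held a mean of 66.6 CPM in normoxia. The paper lists COL1A1 among its early hypoxia-induced genes, which it defined in HCT116 cells, a line not among these libraries. In H460 4 of 5 genes passed (COL1A1, COL3A1, LUM and PDGFRB). The H460 sums were 32.7 to 35.7 CPM in normoxia and 30.6 to 43.9 CPM in hypoxia. In RKO 1 of 5 passed (COL1A1). The part of these genes in the values of the lines was not tested.

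The last list held 9 genes for the turnover of YAP, TAZ and LATS proteins. None was called in RKO or A549 (medians -0.05 and 0.10), and in H460 6 were higher (24.6% of all genes) and 0 lower (27.3%), with a median of 0.76, or 3 higher with library size scaling alone. By DESeq2 none was called in RKO or A549. In RKO 1 was higher without hypoxia replicate 2, and in A549 1 was higher in the joint fit and without hypoxia replicate 1. CSNK1E, a casein kinase of a family with a part in YAP degradation, rose in H460 from 119 and 117 CPM to 388 and 343 CPM (1.63 ± 0.10, adjusted p = 3.73e-08). SIAH2, a ubiquitin ligase known to act on LATS2 protein, rose there from 20.4 and 17.1 CPM to 37.1 and 40.7 CPM (1.06 ± 0.11, adjusted p = 5e-06).

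**Figure D5:**
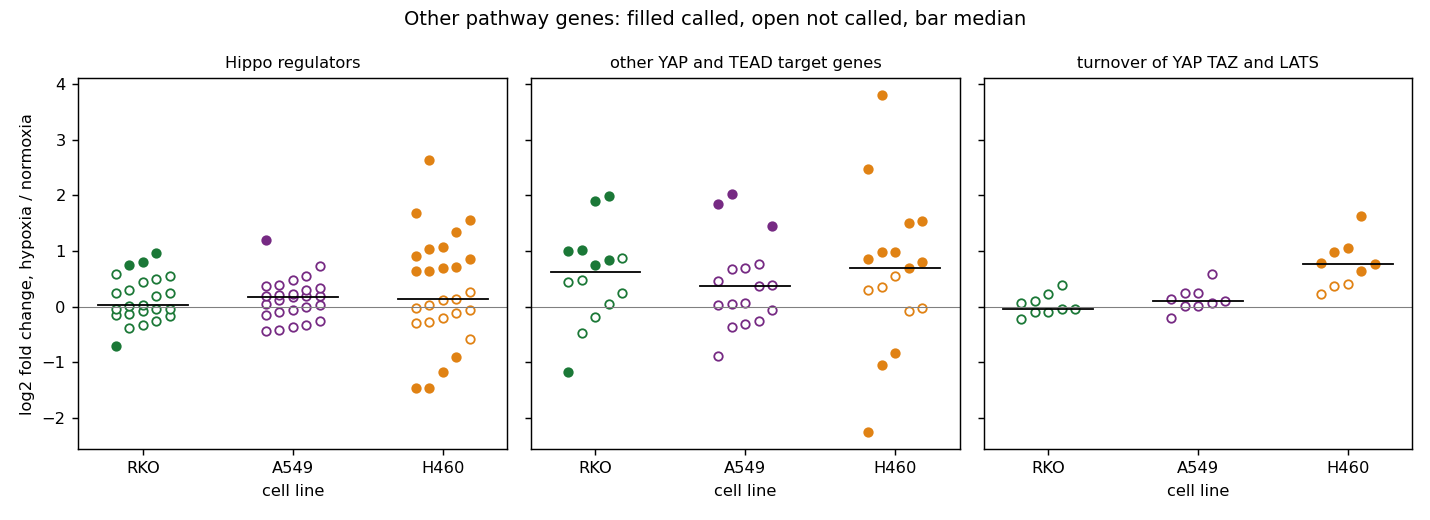
Log2 fold change of hypoxia over normoxia (y axis) for the tested genes of 3 further pathway lists in each line (x axis), filled where called, with a bar at the median. The target list has medians of 0.62, 0.37 and 0.69 in RKO, A549 and H460, and the turnover list lies near 0 in RKO and A549 and at 0.76 in H460.

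The genes whose levels ran closest to the members were listed by the root mean square difference of centered log2 CPM over the 12 libraries, among 12423 genes. CTGF had no close neighbor, with PELI2, GSTM2 and NCOA7 nearest at 0.56, 0.58 and 0.64, against its own SD of 1.74. CYR61 was nearest to RCAN1 (0.45), PLEKHM1 (0.46) and ASAP1 (0.48), against an SD of 0.84, and among the members to AMOTL2 (0.54). YAP1 was nearest to EIF3F (0.11), RPS3 (0.14) and RPL28 (0.14), against an SD of 0.35. CTGF and CYR61 lay 2.23 apart, and CTGF lay 1.57 from LATS2 and 1.57 from WWTR1. A gene with no change over the libraries would lie 1.74 from CTGF, so that 1.57 shows little likeness. These distances include the differences between lines and do not measure a shared hypoxia response.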

How the data were processed

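Poly(A)+ RNA was sequenced in 12 strand-specific libraries, 2 per group of line and oxygen condition. The authors trimmed reads, aligned them to GRCh37/hg19 with TopHat2 2.0.13, removed alignments of low mapping quality with SAMtools 1.3.1 and marked duplicates with Picard 1.129. HTSeq 0.6.1 then assigned reads to exons in the reverse-stranded mode. The authors deposited a raw count for each of 25369 genes and library, and these counts were the input of the fits. The deposited RPKM values, which the authors scaled by gene length and library total without TMM, were used for levels between genes and as an alternative unit. The deposited coordinates are on GRCh37 with the start counted from 0, so that 1 was added.

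The hypoxia effect in a line came from its 4 libraries alone, by the quasi-likelihood F test of edgeR 4.0.16 (R 4.3.3) with TMM factors, for genes over 0.5 CPM in at least 2 of them. Averages, interactions and differences between lines came from 1 fit of all 12 libraries with 6 group means. A gene was called at an adjusted p under 0.1 and a fold change over 1.5, and an interaction at an adjusted p under 0.1. SEs are the log2 fold change divided by the square root of F. The script was tested on simulated counts. Replicates differed by more than counting error, the chi-square divided by its degrees of freedom being 11.8 to 91.7, and none was counted as a duplicate. Named list genes were, per list and line, the top 2 and bottom 2 called genes by log2 fold change, given a mean of at least 100 counts and no overlap of conditions, and those called in 1 direction in all 3 lines. The members and lists were chosen with earlier results of these data known. Alternatives were DESeq2 1.42.0, a joint fit, scaling by RLE factors or library size only, a replicate block, changed filters and thresholds, leaving out each library, and limma 3.58.1 on log2(RPKM + 0.1) or log2(RPKM + 1). A fit of the RKO and H460 libraries only was added after the data were seen. The study called genes with DESeq2 at the same thresholds.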

Additional observations from a re-analysis of the deposited data

Results flagged for a closer look

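For 7 of the 10 genes, the effect of hypoxia differed between the 3 lines by the edgeR test of the interaction of line and oxygen, which drew attention to them. The adjusted p was 0.00468 for ANKRD1, 0.0105 for YAP1, 0.0157 for AMOTL2, 0.0181 for LATS2, 0.0453 for CTGF, 0.075 for CYR61 and 0.0784 for TEAD1. Over all genes 48.8% passed the same test. Leaving out 1 library gave 4 to 8 members, with 4 without RKO normoxia replicate 1 or 2. ANKRD1, CTGF, CYR61 and AMOTL2 had positive log2 effects in RKO and negative ones in A549 and H460. Without A549 normoxia replicate 2, the A549 effects of CTGF and CYR61 turned positive, and those of ANKRD1 and AMOTL2 were -0.05 and -0.08. The H460 effect of CYR61 ran from -0.71 to 0.02 over 16 alternatives. YAP1 had its highest effect in H460 (0.92, against 0.12 in RKO and 0.29 in A549). The RKO minus H460 difference of YAP1 ran from -0.85 to -0.36 over 20 alternatives. That of A549 minus H460 ran from -0.70 to -0.37 over 19. LATS2 was positive in RKO and H460 (0.67 and 0.59) and -0.31 in A549, where the effect was 0.10 without normoxia replicate 2. TEAD1 had -0.36 in H460, -0.41 in A549 and 0.17 in RKO. Medium and line cannot be told apart where H460 is compared, whereas RKO and A549 shared DMEM.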

How the results depend on the processing

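In H460 the calls depended on scaling. With library size only, 0 members were higher and 5 lower, as they were with limma on log2 RPKM with a pseudocount of 0.1, of 1, and of 0.1 without a filter. The joint fit left 1 lower in H460, and no minimum fold gave 5 lower. In A549 1 member was lower with no low count filter and 1 in the joint fit. Averaged over lines, 0 were higher with library size only, and 4 higher and 1 lower with no minimum fold. For the normoxic level of RKO against H460, 2 were higher with no low count filter and with no minimum fold, and for A549 against H460 2 were lower with no minimum fold. The numbers of replicates carry no stated meaning, and deviations of same-numbered libraries correlated at 0.376 in RKO, 0.397 in A549 and 0.184 in H460. With the number as a replicate block, 2 members (AMOTL2 at -0.62, adjusted p = 0.0151, and ANKRD1 at -1.38, adjusted p = 0.00523) were lower in A549. With the same replicate block, AMOTL1 was called in RKO (1.19, adjusted p = 0.0324), 2 members were higher in normoxic RKO than H460, and no other count of members per line or in the average moved. In A549 it gave 3 regulators, 6 other targets and 1 turnover gene higher, and 1 other target lower.

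Leaving out 1 library at a time gave 4 to 5 members higher and 0 to 0 lower in RKO, 0 to 0 higher and 0 to 4 lower in A549, and 2 to 3 higher and 2 to 4 lower in H460. The average gave 0 to 1 higher and 0 to 0 lower, and the interaction 4 to 8 members. Normoxic levels gave 1 to 2 higher and 5 to 8 lower for RKO against A549, 1 to 2 and 5 to 5 for RKO against H460, and 2 to 4 and 1 to 1 for A549 against H460. Without A549 normoxia replicate 2, 13 estimates of members changed sign, 9 of them not called with or without it. The other 4 were called with or without it: the A549 minus H460 difference of the hypoxia effect was 1.61 for CTGF and 0.95 for CYR61, and the normoxic RKO minus A549 difference was 0.48 for CTGF and 0.66 for CYR61. Without A549 normoxia replicate 1 these 4 values were -0.97, -1.07, -2.11 and -1.37. The cause was not tested.

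Over all genes the A549 count was the least stable, at 381 calls, with 871 by DESeq2, 1397 in the joint fit, 1912 with the replicate block, 800 with no filter, 192 with library size only, 165 at an adjusted p under 0.05, 28 to 180 by limma, and 1835 and 237 without hypoxia replicate 1 and 2. The RKO minus A549 difference passed for 2270 genes, 4200 with the replicate block, 1223 at an adjusted p under 0.05, and 1047 and 1384 without RKO normoxia replicate 1 and RKO hypoxia replicate 1. The A549 minus H460 difference passed for 5607 genes, and for 3553 without H460 hypoxia replicate 1. The average passed for 4111 genes, or 8800 with no minimum fold. With library size only, the share of higher calls in H460 went from 47.5% to 26.5%, in the average from 56.3% to 38.6%, and in the differences of RKO minus A549, RKO minus H460 and A549 minus H460 from 62.0%, 56.2% and 52.2% to 79.8%, 82.2% and 72.5%. With 2 libraries per group, effects near 1.5-fold sit within the error of A549, and low members (AMOTL1 and ANKRD1 in RKO) rest on few reads.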
